A study of Mus musculus with 4 samples.

Results

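The forkhead and Sox transcription factors are described here in mouse mammary tumours with and without targeted radiation. They were taken as every protein-coding gene in the count tables whose symbol was a forkhead symbol from Foxa to Foxs with a number, or Sox with a number. Foxa1, Sox5 and Sox9 were left out. This gave 60 genes, 43 forkhead and 17 Sox, of 54532 genes counted and 22046 protein-coding genes. The rule used names only, but it was set with earlier results of these data known.

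Forkhead proteins share a winged-helix domain that binds DNA, and several of them open closed chromatin or pass on growth factor and stress signals. FoxO factors are held in the cytoplasm when the kinases Akt and Sgk1 phosphorylate them, and in the nucleus they turn on genes of cell-cycle arrest, metabolism and stress defence. Sox proteins bind the minor groove through an HMG box and bend the DNA, usually beside a partner protein. In the mammary gland and its tumours, Sox10 and Foxc1 are best known from basal-type epithelium, and the SoxC factor Sox4 from the response to TGF-beta.

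The series held 4 libraries in 2 groups. The irradiated group had 2 libraries, A and B, from tumours given targeted radiation, 6 Gy in the series' design text, and labelled with day 6. The unirradiated group had 2 libraries, A and B, labelled with the same day and with no radiation. Both groups came from C57BL/6 mice of the source MMTV-PyMT; Dll1 mcherry+, in which the mouse mammary tumour virus promoter drives the polyoma middle T oncogene in mammary epithelium and Dll1 is a Notch ligand. The labels call the material primary breast cancer-associated fibroblasts (CAF), found in digested tumours with an antibody to PDGFRa. Neither the number of animals or pools behind a library, nor when the dose was given relative to that day, is given in the sources used here, and p-values therefore cover library-to-library spread only, whose source may be technical.

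Total counts were 15817969 and 23763830 in irradiated A and B, against 17569515 and 13011489 in unirradiated A and B. The fibroblast label was set against marker genes. Markers of epithelium summed to 8851 to 9193 CPM (counts per library size, scaled by TMM) in irradiated libraries and 9750 to 9772 CPM in unirradiated libraries, with all 15 epithelial markers detected. Fibroblast markers summed to 1775 to 1789 CPM in irradiated libraries and 569.5 to 607.6 CPM in unirradiated libraries, and 12 of 15 tested were higher. The libraries therefore held epithelial RNA in both groups beside that of fibroblasts. Endothelial markers summed to 233.8 to 246.6 CPM in irradiated libraries and 110.2 to 113.3 CPM in unirradiated libraries, and macrophage markers to 847.7 to 850.2 CPM in irradiated and 340.5 to 343.1 CPM in unirradiated libraries. In bulk RNA, fewer cells of a type and less RNA per cell cannot be told apart, and the part of these marker shifts in the results on forkhead and Sox genes was not tested.

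The stretches that name these families are shown first, because they show how alike the genes of a family are. All 17 Sox genes encoded the HMG-box letters RPMNAFMVW, and the 27 bases behind them (GRCm38, coding exons, each on the gene's own strand) are given for the Sox genes on which the results turn. Capitals mark bases that differ from Sox4.
Sox4: cggcccatgaacgcctttatggtgtgg
Sox10: AggcccatgaacgccttCatggtgtgg
Sox8: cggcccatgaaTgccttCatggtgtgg
Sox11: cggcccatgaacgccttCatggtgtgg
Sox21: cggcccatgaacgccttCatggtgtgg
Sox15: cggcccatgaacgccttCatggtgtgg
Sox6: cgAccAatgaaTgcGttCatggtTtgg
They lie at chr13:28952815-28952841 (Sox4, minus strand), chr15:79163375-79163401 (Sox10, minus), chr17:25570196-25570222 (Sox8, minus), chr12:27342232-27342258 (Sox11, minus), chr14:118235582-118235608 (Sox21, minus), chr11:69655517-69655543 (Sox15, plus) and chr7:115489736-115489762 (Sox6, minus). Sox11, Sox21 and Sox15, which were all lower in irradiated libraries, had the same 27 bases, and differed from Sox4 at 1 base. Sox18, which was tested and not called, and Sox1, at 0 counts throughout, had those same 27 bases. Sox6 differed from Sox4 at 6 bases while encoding the same letters.

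The forkhead genes were less alike at this level. The letters KPPYSY at the start of the forkhead domain were found in 22 of 43 forkhead genes, and not in the FoxI, FoxM, FoxN, FoxO and FoxP classes. The 18 bases behind them are given for 4 genes named in the results, with capitals at bases that differ from Foxc1.
Foxc1: aagccgccctacagctac
Foxe1: aagccgccctacagctac
Foxq1: aagccCccAtacTCctac
Foxd2: aaAccAccTtaTTCGtac
They lie at chr13:31807439-31807456 (Foxc1, plus strand), chr4:46344356-46344373 (Foxe1, plus), chr13:31559259-31559276 (Foxq1, plus) and chr4:114908420-114908437 (Foxd2, minus), each in exon 1. Foxq1 differed from its neighbour Foxc1 at 4 bases and Foxd2 at 7. The distinct 50-base stretches of each gene's transcripts were searched in the transcripts of other genes, on either strand. Over 50% of them were shared only for Foxq1 (65.7%, with A530084C06Rik) and Sox4 (54.1%, with Gm26735). Both shared them with a gene on the opposite strand that had 0 counts in every library. Sox21 shared 17.8% with Gm4675 and Sox8 8.99% with 2810468N07Rik.

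Of the 60 genes, 37 passed the filter on low counts and were tested, 24 forkhead and 13 Sox. In irradiated libraries 13 were higher and 13 lower than in unirradiated libraries, and 11 were not called (edgeR's quasi-likelihood test, adjusted p under 0.05 over all genes tested). The 26 called genes are 70.3% of those tested, against 66.4% of all tested genes, so the share called was near that background. By direction, 35.1% were higher and 35.1% lower, against 33.9% and 32.5% of all tested genes. A call with a change of at least 2-fold was made for 10 of 37 (27.0%), 4 higher and 6 lower, against 20.9% of all tested genes. The values of the groups did not overlap for 27 of 37 genes, against 82.5% of all tested genes. The median absolute log2 fold change was 0.50 in the 37 genes and 0.46 in all tested genes, and 10 of the 26 calls were of changes under 1.5-fold. Against a 1.5-fold minimum change, 4 were higher and 6 lower.

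The forkhead and Sox families differed in the count by direction, with no test of that difference. Of 24 forkhead genes 11 were higher and 7 lower, and of 13 Sox genes 2 were higher and 6 lower. Their median log2 fold changes were -0.03 and -0.22, against -0.004 in all tested genes. The forkhead count lower was 4 without irradiated library B. Among 956 other tested transcription factors, 364 were higher and 236 lower (62.8% called), with 29 higher and 20 lower of 66 homeobox factors and 14 higher and 25 lower of 55 bHLH factors.

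**Figure D1:**
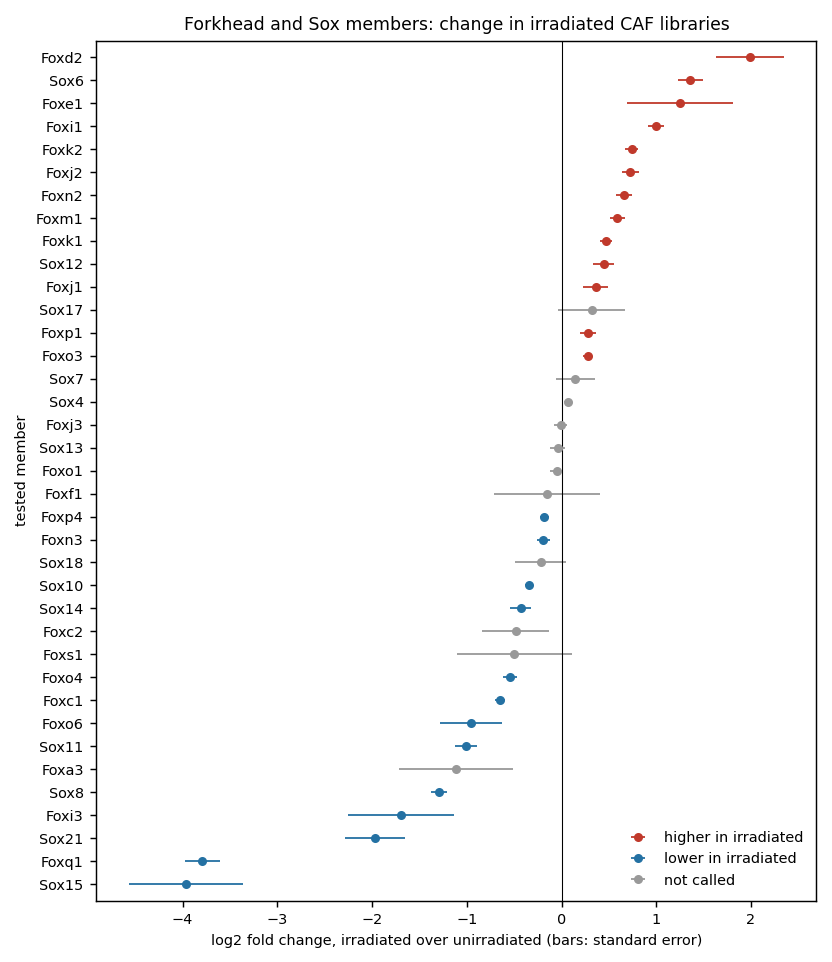
Log2 fold change of the 37 tested forkhead and Sox genes, irradiated over unirradiated, with standard errors as bars, ordered from highest to lowest. Foxd2 stands highest at 1.99 and Sox15 lowest at -3.97, with 13 genes called on each side of zero.

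Foxq1 was the forkhead gene with the lowest log2 fold change. It encodes a repressor studied in epithelial-to-mesenchymal transition and needed for the inner structure of the mouse hair shaft. Foxq1 (chr13:31556134-31560976, plus strand) had 1.92 and 1.45 TMM-scaled CPM in irradiated A and B, against 23.8 and 21.6 CPM in unirradiated A and B. Both irradiated libraries lay far below both unirradiated libraries, and the log2 fold change was -3.79 ± 0.18 (SE; edgeR, adjusted p = 4.85e-28). A530084C06Rik lies over 66.1% of the Foxq1 span on the other strand with 0 counts, and the library kit did not keep strand, so reads of the pair cannot be told apart.

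Foxq1 opens a forkhead cluster on chromosome 13, with Foxf2 64.8 kb and Foxc1 a further 175 kb on. Foxc1 acts in mesenchyme of the eye, skull and vessels and marks basal-like breast cancer. Its values were 124 and 133 CPM in irradiated A and B, against 195 and 209 CPM in unirradiated A and B. The groups did not overlap and Foxc1 fell (log2 fold change -0.65 ± 0.05 (SE), edgeR, adjusted p = 1.11e-17). Foxf2, between them, had 2 and 3 counts in irradiated libraries, against 3 and 1 counts in unirradiated libraries, too few to pass the filter on low counts. Per kilobase of gene length (RPKM), Foxc1 stood at 22.0 ± 1.14 in irradiated and 34.6 ± 1.72 in unirradiated libraries, and Foxq1 at 0.349 ± 0.0689 in irradiated and 4.69 ± 0.321 in unirradiated libraries (SD, n = 2 each). The neighbours thus fell together by unequal amounts, with a gene near the counting floor between them.

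On chromosome 8, Foxf1, Foxc2 and Foxl1 lie 28.0 and 9.05 kb apart. Foxf1, a Hedgehog target of visceral mesenchyme, averaged 0.563 ± 0.0543 CPM in irradiated and 0.633 ± 0.135 CPM in unirradiated libraries (SD, n = 2 each) and was not called. Foxc2, a factor of lymphatic vessels and mesenchyme, averaged 1.51 ± 0.249 CPM in irradiated and 2.16 ± 0.948 CPM in unirradiated libraries. It was not called with all libraries, and was called lower without unirradiated library A (log2 fold change -0.94, edgeR, adjusted p = 0.0423). Foxl1 had 4 and 3 counts in irradiated libraries, against 0 and 5 in unirradiated libraries, and did not pass the filter on low counts.

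**Figure D2:**
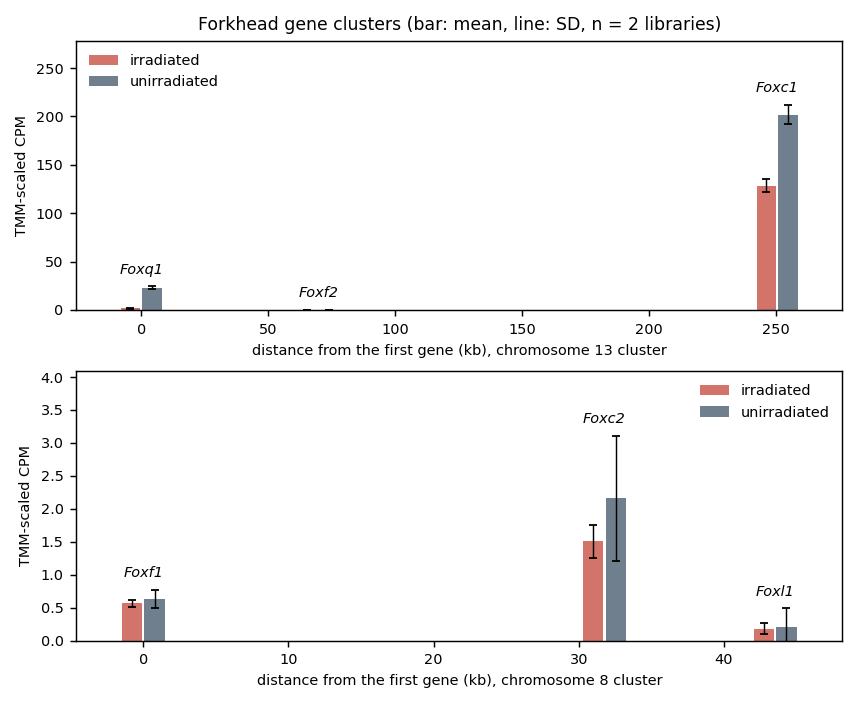
TMM-scaled CPM of the forkhead genes of the chromosome 13 and chromosome 8 clusters against distance from the first gene in kb, as means of 2 libraries with SD, irradiated left of unirradiated. Foxq1 and Foxc1 are lower in irradiated libraries, while Foxf2 averages 0.121 CPM in irradiated and 0.130 CPM in unirradiated libraries. Each cluster has its own CPM axis, and the highest mean on chromosome 8 is 2.16 CPM, for Foxc2 in unirradiated libraries.

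Foxd2 had the highest log2 fold change of the tested members. It acts in mesenchyme of the kidney and the face. Foxd2 (chr4:114906282-114908873, minus strand) had 3.07 and 3.67 CPM in irradiated A and B, against 0.716 and 1.05 CPM in unirradiated A and B. The groups did not overlap, and Foxd2 rose (log2 fold change 1.99 ± 0.36 (SE), edgeR, adjusted p = 2.01e-06). Its level stayed low, at 1.30 ± 0.165 RPKM in irradiated and 0.341 ± 0.0916 RPKM in unirradiated libraries (SD, n = 2 each). Fibroblast markers, 12 of 15 tested higher and 1 lower, moved the same way, and their part in the Foxd2 values was not tested. Foxd2os, a non-coding gene that starts 383 bases away on the opposite strand without overlap and was chosen after its values were seen, moved the same way, with 8.72 and 7.83 CPM in irradiated A and B, against 2.27 and 2.43 CPM in unirradiated A and B (log2 fold change 1.81 ± 0.23 (SE), edgeR, adjusted p = 2.54e-10). The 250 bases before the RefSeq start of Foxd2 lie between both genes (GRCm38.p6, chr4:114908899-114909148, minus strand), and are shown because both rose, with CpG dinucleotides in capitals.
Foxd2 upstream: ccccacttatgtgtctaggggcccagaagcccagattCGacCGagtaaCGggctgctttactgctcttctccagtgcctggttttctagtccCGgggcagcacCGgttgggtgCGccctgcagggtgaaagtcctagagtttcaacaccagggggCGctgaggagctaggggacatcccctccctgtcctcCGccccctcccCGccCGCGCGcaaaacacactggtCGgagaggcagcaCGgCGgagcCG
It held 16 CpG at 64.4% GC, against a median of 15 CpG and 59.6% in 10842 tested protein-coding genes. None of the letter strings counted next over the family was found in it on either strand.

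Over the family, RefSeq starts were matched for 39 of the 60 genes. These genes had 49 upstream windows, of which 1 per gene was counted, so strings in other windows are left out. For 40 of the 49, the first 30 transcribed bases lay in a transcript of the gene. The counted windows had a median GC of 64.4%, with 65.6% in 22 tested and 60% in 17 untested genes. The median was 56.0% in 16497 protein-coding genes and 59.6% in the 10842 tested ones. The forkhead core TGTTTAC was in 1 of 39 windows (2.56%, against 2.64% of protein-coding genes) and the Sox core ACAAAG in 6 (15.4%, against 14.9%), so both letter strings were about as common as elsewhere. A second Sox string, ACAATG, was in 1 (2.56%, against 9.09%). CCAAT was in 19 (48.7%, against 36.1%) and TATAAA in 2 (5.13%, against 11.9%). Among tested genes alone the gaps were smaller, with TATAAA in 1 of 22 members (4.55%, against 6.72% of tested protein-coding genes), ACAATG in 0 of 22 (against 5.99%) and CCAAT in 9 of 22 (40.9%, against 36.0%). These matches are of letters in a window on both strands, not of binding.

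The tested FoxI pair moved in opposite directions. Foxi1, the master factor of ion-transporting ionocytes and intercalated cells, had 49.3 and 48.7 CPM in irradiated A and B, against 25.3 and 23.5 CPM in unirradiated A and B. Both irradiated libraries lay above both unirradiated libraries, and Foxi1 rose (log2 fold change 1.00 ± 0.08 (SE), edgeR, adjusted p = 1.14e-16) to 20.8 ± 0.172 RPKM in irradiated libraries, against 10.3 ± 0.549 RPKM in unirradiated libraries (SD, n = 2 each). Foxi3, a factor of hair and tooth placodes, had 5 and 8 counts in irradiated A and B, against 18 and 12 in unirradiated A and B. The depth-corrected ratio was 0.305, with a 95% exact interval for counting error alone of 0.146 to 0.602. Foxi3 was called lower (log2 fold change -1.69 ± 0.56 (SE), edgeR, adjusted p = 0.00667), a call lost without irradiated B (adjusted p = 0.0608) or unirradiated A (adjusted p = 0.0804). Foxi2 had 0 counts in every library. Markers of keratinocytes and hair follicles, 3 of 10 tested higher and 6 lower, summed to 174.6 to 181.2 CPM in irradiated and 135.8 to 143.8 CPM in unirradiated libraries. That sum leaned on 1 gene, Krt17, which averaged 137 ± 0.462 CPM in irradiated and 65.4 ± 2.81 CPM in unirradiated libraries (SD, n = 2 each). The part of these markers in the Foxi3 and Foxq1 values was not tested.

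Foxe1, best known from thyroid development, had 12 and 29 counts in irradiated A and B, against 5 and 7 in unirradiated A and B. The ratio was 2.40 (95% exact interval 1.24 to 5.02), and the call was close to the threshold (log2 fold change 1.25 ± 0.56 (SE), edgeR, adjusted p = 0.0443). Without irradiated B the log2 fold change was 0.81 (adjusted p = 0.388) and without unirradiated A 0.80 (adjusted p = 0.357). With all libraries the call was also lost under edgeR's legacy dispersion (adjusted p = 0.0554), upper-quartile scaling (0.0548), no filter on low counts (0.0553) and DESeq2 (0.245).

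FoxO genes moved apart from one another. Foxo3, the most abundant, is a stress-response factor that also limits the cell cycle. Its values were 222 and 227 CPM in irradiated A and B, against 180 and 192 CPM in unirradiated A and B. Foxo3 rose by a log2 of 0.27 ± 0.05 (SE; edgeR, adjusted p = 1.08e-06), and with the trend in length and GC removed the value was 0.08 and not called (adjusted p = 0.0884). Foxo4, encoded on the X chromosome, had 39.8 and 41.6 CPM in irradiated A and B, against 59.2 and 59.6 CPM in unirradiated A and B. Foxo4 fell without overlap of the groups (log2 fold change -0.54 ± 0.07 (SE), edgeR, adjusted p = 1.06e-09). Foxo1, which controls insulin-response genes, had 65.1 and 61.1 CPM in irradiated A and B, against 66.2 and 64.1 CPM in unirradiated A and B. Its groups overlapped and it was not called (log2 fold change -0.05 ± 0.07 (SE), edgeR, adjusted p = 0.488). With the trend in length and GC removed, Foxo1 was called lower at -0.33. Foxo6, a brain-enriched member, had 1.503 and 1.29 CPM in irradiated A and B, against 2.80 and 2.51 CPM in unirradiated A and B. It was called lower at -0.96 ± 0.33 (SE; edgeR, adjusted p = 0.00837), and not without irradiated B (-0.82, adjusted p = 0.109) or unirradiated A (-0.86, adjusted p = 0.0797).

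Genes downstream and upstream of FoxO were counted from lists of textbook members. Of 23 tested FOXO target genes, 6 rose and 14 fell (median log2 fold change -0.22). Pink1, a mitochondrial quality-control kinase, averaged 62.9 ± 2.43 CPM in irradiated and 133 ± 2.13 CPM in unirradiated libraries (SD, n = 2 each). Pik3ip1, an inhibitor of PI3K, and Bcl6, a repressor, were lower (log2 fold change -0.93 and -0.77), and Irs2, an insulin receptor adaptor, higher (0.68). Of 20 genes that control FoxO, 12 rose and 3 fell (median 0.19), but 9 rose and 6 fell with the trend in length and GC removed. Against a 1.5-fold minimum change, 3 of these rose and none fell, and of the FOXO target genes 2 rose and 4 fell. Sgk1, which phosphorylates FoxO, averaged 944 ± 0.654 CPM in irradiated and 484 ± 2.45 CPM in unirradiated libraries. Stk4, which activates FoxO, was higher as well (0.74). The list thus held higher genes that act on FoxO in opposite ways.

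Foxm1 drives genes of the G2 and M phases. It had 50.5 and 48.9 CPM in irradiated A and B, against 32.5 and 33.7 CPM in unirradiated A and B. The groups did not overlap and Foxm1 rose (log2 fold change 0.59 ± 0.08 (SE), edgeR, adjusted p = 1.29e-09). Of 20 FOXM1 target genes, 12 rose and 3 fell (median 0.29), and no call reached 2-fold. Against a 1.5-fold minimum change, 2 rose and none fell. Bub1, a spindle checkpoint kinase, was higher by 0.97, Top2a, a DNA topoisomerase, by 0.96, and Cenpf, a kinetochore protein, by 0.61. Cks2, which binds cyclin-dependent kinases, was lower (-0.63).

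Both FoxK genes, 2 of 3 tested FoxJ genes and 1 of 2 tested FoxN genes were higher, and the other FoxN gene was lower. Foxk1 and Foxk2, which recruit corepressors to genes of autophagy and metabolism, rose by 0.47 ± 0.06 and 0.74 ± 0.07 (log2, SE). Foxk2 had 78.1 and 75.0 CPM in irradiated A and B, against 48.7 and 42.0 CPM in unirradiated A and B. Foxj2 rose by 0.72 and Foxn2 by 0.66, and all 4 had groups that did not overlap. Foxj3 was not called (-0.01), and was called lower with the trend in length and GC removed (-0.34, adjusted p = 7.28e-06). Foxn3, a checkpoint repressor, was called lower (log2 fold change -0.19), and not without irradiated B (-0.08) or unirradiated A (-0.17). Foxj1, the factor of motile cilia, had 15.03 and 14.6 CPM in irradiated A and B, against 10.6 and 12.8 CPM in unirradiated A and B, and was called higher (0.36, edgeR, adjusted p = 0.0145), but not without unirradiated A (0.21, adjusted p = 0.260). Beside it, 5 of 11 measured ciliated-cell markers could be tested, 1 higher and 1 lower, and they summed to 18.3 to 20.3 CPM in irradiated and 15.3 to 18.6 CPM in unirradiated libraries.

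Among FoxP genes, which repress as dimers, Foxp4 had the highest level per length (RPKM) of the forkhead genes. It had 172 and 159 CPM in irradiated A and B, against 185 and 189 CPM in unirradiated A and B. The call was of a small change (log2 fold change -0.18 ± 0.05 (SE), edgeR, adjusted p = 0.00123), lost without irradiated B (-0.11, adjusted p = 0.0921) and with no filter on low counts (-0.12, adjusted p = 0.0718). Foxp1 was called higher by 0.28, and had the opposite sign with the trend in length and GC removed (-0.06). Foxp3, the factor of regulatory T cells, had 4 and 7 counts in irradiated libraries, against 4 and 5 in unirradiated libraries, with a ratio of 0.859 (0.324 to 2.35). T-cell markers, 7 of 12 tested lower and none higher, summed to 18.8 to 20.1 CPM in irradiated and 27.3 to 31.7 CPM in unirradiated libraries. B-cell markers, 4 of 5 tested lower and none higher, summed to 4.57 to 4.68 CPM in irradiated and 12.7 to 12.9 CPM in unirradiated libraries, with Ms4a1 at 0 in the irradiated ones. Foxa3, a factor of liver and gut, had 1 and 14 counts in irradiated A and B, against 12 and 11 counts in unirradiated A and B. It was not called with all libraries (edgeR, adjusted p = 0.0986), and was called lower without irradiated B (log2 fold change -3.54, adjusted p = 0.0109).

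**Figure D3:**
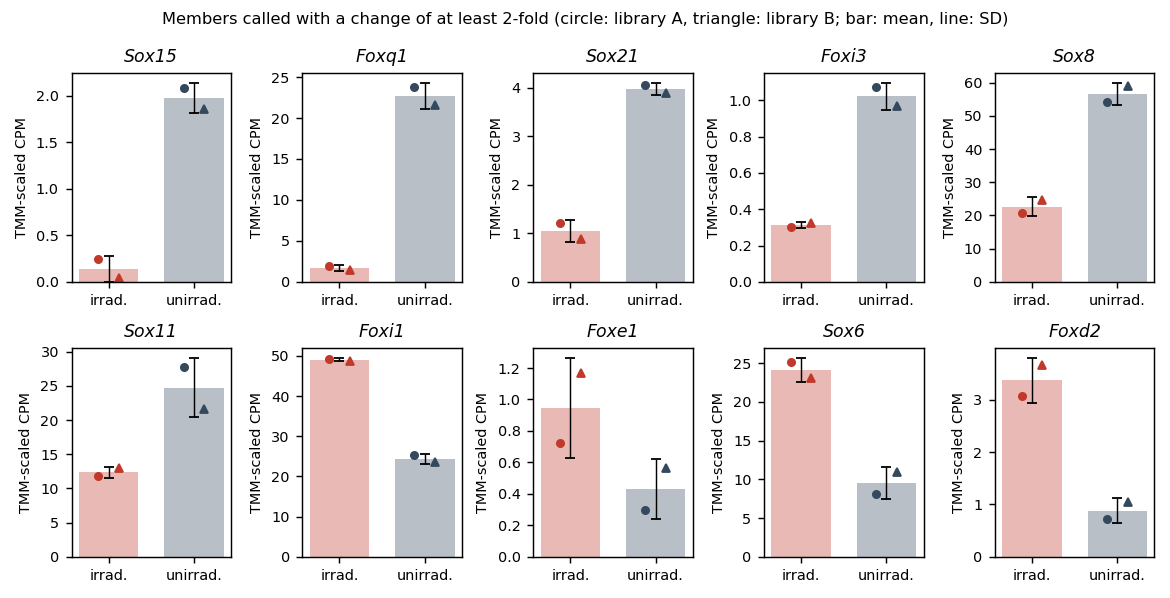
TMM-scaled CPM of the 10 genes called with a change of at least 2-fold, with each library as a point (circle A, triangle B), bars at the mean and lines at the SD, irradiated left of unirradiated. The irradiated and unirradiated points do not overlap in any panel, which follows largely from how the genes were chosen. Over all tested genes the share without overlap was 82.5%.

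The SoxE genes were both lower. Sox10, a factor of neural crest, glia and secretory epithelium, was the member with the highest level per length in both groups as counted. It had 374 and 376 CPM in irradiated A and B, against 463 and 487 CPM in unirradiated A and B. The groups did not overlap, and Sox10 fell (log2 fold change -0.34 ± 0.04 (SE), edgeR, adjusted p = 1.22e-10). Sox8, its close relative, had 20.7 and 24.6 CPM in irradiated A and B, against 54.2 and 58.9 CPM in unirradiated A and B. Sox8 fell as well, without overlap of the groups (log2 fold change -1.30 ± 0.08 (SE), edgeR, adjusted p = 1.19e-21). Of 9 tested SoxE target genes of crest and myelin, 3 rose and 4 fell (median -0.002). Of the 12 genes on that list, 7 are also on the Schwann-cell list. Pmp22 and Ednrb were higher (2.15 and 1.58) and S100b lower (-1.48). Schwann-cell markers, 4 of 9 tested higher and 4 lower, summed to 297 to 302.4 CPM in irradiated and 289.7 to 292.4 CPM in unirradiated libraries, with none at 0. Epithelial markers were lower for 9 and higher for 4 of 15. Myoepithelial markers, 5 of 9 tested higher and 2 lower, summed to 424.2 to 438.2 CPM in irradiated and 691.5 to 717.3 CPM in unirradiated libraries. The fall in that sum leaned on Lgals7, so it does not show a fall across the list. Lgals7 had 84.4 and 97.2 CPM in irradiated A and B, against 401 and 420 CPM in unirradiated A and B. The part of these markers in the Sox10, Sox8 and Foxc1 values was not tested.

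The SoxC genes went 3 ways. Sox4, a factor of progenitors and of the TGF-beta response, had 370 and 386 CPM in irradiated A and B, against 352 and 371 CPM in unirradiated A and B. Its groups overlapped and it was not called (log2 fold change 0.07 ± 0.04 (SE), edgeR, adjusted p = 0.175), but was called higher without irradiated A (0.11, adjusted p = 0.0305) and with no filter on low counts (0.13, adjusted p = 0.0255). Sox11, mostly a factor of fetal neurons and mesenchyme, had 11.8 and 12.95 CPM in irradiated A and B, against 27.8 and 21.7 CPM in unirradiated A and B. Sox11 fell (log2 fold change -1.01 ± 0.12 (SE), edgeR, adjusted p = 1.86e-11). Sox12, the weakest activator of the class, had 20.9 and 20.8 CPM in irradiated A and B, against 14.9 and 15.9 CPM in unirradiated A and B, and rose by 0.44 (edgeR, adjusted p = 4.37e-04).

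SoxD proteins have no activation domain of their own. Sox6, which acts in cartilage, red blood cells and glia, had 25.2 and 23.0 CPM in irradiated A and B, against 8.05 and 11.003 CPM in unirradiated A and B. The groups lay apart, and Sox6 rose (log2 fold change 1.36 ± 0.13 (SE), edgeR, adjusted p = 1.12e-14). Per length it stayed at 1.63 ± 0.103 RPKM in irradiated and 0.642 ± 0.141 RPKM in unirradiated libraries (SD, n = 2 each). Sox13, its relative, was not called (-0.04 ± 0.08 (SE)), with overlapping groups.

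Sox15 and the SoxB2 genes were lower. Sox15, the sole member of its group, acts in muscle progenitors and trophoblast. It had 4 and 1 counts in irradiated A and B, against 35 and 23 in unirradiated A and B. The ratio was 0.0606 (95% exact interval 0.019 to 0.150), and Sox15 fell (log2 fold change -3.97 ± 0.60 (SE), edgeR, adjusted p = 3.93e-08). With so few counts the size depended on the library, at -5.39 without irradiated A and -3.00 without irradiated B, against a range of -3.95 to -3.55 for Foxq1 with a library left out. Mpdu1 overlaps Sox15 by 31 bases on the opposite strand, 2.19% of its span, and had 56.4 and 55.9 CPM in irradiated A and B, against 70.0 and 71.2 CPM in unirradiated A and B. Sox21, a repressor that opposes Sox2, had 1.20 and 0.888 CPM in irradiated A and B, against 4.06 and 3.88 CPM in unirradiated A and B. Sox21 fell (log2 fold change -1.97 ± 0.32 (SE), edgeR, adjusted p = 2.01e-07). Sox14, the other B2 gene, had 14.97 and 17.2 CPM in irradiated A and B, against 24.0 and 19.3 CPM in unirradiated A and B, and was called lower (-0.43, edgeR, adjusted p = 6.76e-04), but not without unirradiated A (-0.24, adjusted p = 0.132) or with the trend in length and GC removed (-0.22, adjusted p = 0.0834).

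The SoxB1 genes, factors of stem cells and neural progenitors, did not pass the filter on low counts. Sox2 had 13 and 7 counts in irradiated A and B, against 0 and 0 in unirradiated A and B. With a floor of 3 counts set for the unirradiated group, the depth-corrected ratio of Sox2 was 4.69. The irradiated counts were taken as exact there, so the ratio is not a lower limit. With no filter Sox2 was called higher (edgeR, adjusted p = 0.00226). Sox3 had 0 and 4 counts in irradiated libraries, against 1 and 0 in unirradiated libraries, and Sox1 had 0 in all 4. Of 8 tested SoxB and stem-cell genes, 1 rose and 6 fell (median -1.05). Klf4, a reprogramming factor that epithelium also expresses, averaged 223 ± 4.05 CPM in irradiated and 647 ± 5.07 CPM in unirradiated libraries (SD, n = 2 each), and Lin28a, Utf1 and Prom1 were lower (log2 fold changes -1.98, -1.25 and -0.85). Sox30, of the male germ line, had 7 and 3 counts in irradiated A and B, against 0 and 0 in unirradiated A and B. Its ratio at the same floor was 2.34, again not a lower limit. With no filter Sox30 was called close to the threshold (edgeR, adjusted p = 0.0499).

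The SoxF genes mark endothelium. Sox7, Sox17 and Sox18 were all tested and none was called, with log2 fold changes of 0.14 ± 0.21, 0.32 ± 0.36 and -0.22 ± 0.27 (SE). Their groups overlapped in each case, and together they summed to 11.2 and 9.68 CPM in irradiated A and B, against 10.3 and 9.30 CPM in unirradiated A and B. Of 12 SoxF endothelial target genes, 6 rose and 3 fell (median 0.70), and 6 of the 12 are endothelial markers too. Kdr, the VEGF receptor, averaged 19.8 ± 0.394 CPM in irradiated and 4.29 ± 0.576 CPM in unirradiated libraries (SD, n = 2 each). Flt1 and Vegfc were higher (2.09 and 1.61) and Mmp7, which epithelium also makes, lower (-1.58). Of 15 endothelial markers, 13 were higher and none lower. The standard errors leave the SoxF changes wide, so these values do not show that the SoxF genes were unchanged.

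Proteins that act with forkhead and Sox factors, and the Hedgehog pathway upstream of some, were counted last. Of 22 tested partners and corepressors, 7 rose and 10 fell (median -0.08). Pou3f1, a POU partner of Sox proteins, averaged 3.97 ± 0.260 CPM in irradiated and 22.1 ± 0.996 CPM in unirradiated libraries (SD, n = 2 each). The corepressor Aes was lower (-1.02), and Pax6 and Mef2c were higher (2.21 and 0.83). Of 7 tested genes of the Hedgehog pathway, which induces several forkhead genes in mesenchyme, 4 were higher and 2 lower. Gli1, Gli3 and Smo were higher (1.63, 1.32 and 0.70), while Foxf1, a known Hedgehog target, was not called.

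By level per length, 5 genes led in both groups. Sox10 averaged 123 ± 0.479 RPKM in irradiated and 156 ± 5.48 RPKM in unirradiated libraries. Sox4 followed with 78.8 ± 2.36 RPKM in irradiated and 75.4 ± 2.89 RPKM in unirradiated libraries. Gm26735 lies over 57.4% of the Sox4 span on the other strand with 0 counts, and the library kit did not keep strand. How reads in that overlap were counted is not known, while Sox10 overlaps no other gene. The level of Sox4, its place behind Sox10 and the shares given below are therefore less certain. Foxp4 stood at 33.6 ± 1.91 RPKM in irradiated and 38.0 ± 0.670 RPKM in unirradiated libraries. Foxo3 came next in irradiated and Foxc1 in unirradiated libraries. Foxo3 had 29.6 ± 0.503 RPKM in irradiated libraries and 24.6 ± 1.13 RPKM in unirradiated libraries (SD, n = 2 each throughout). In each group 9 of the 60 genes reached a mean of 10 RPKM. In irradiated libraries Foxp4, at 34.9 and 32.2 RPKM, stood above both libraries of Foxo3. In unirradiated libraries Foxp4, at 37.5 and 38.5 RPKM, and Foxc1, at 33.3 and 35.8 RPKM, did not overlap.

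All 60 genes summed to 433.1 and 434.6 RPKM in irradiated A and B, against 466.2 and 479.1 RPKM in unirradiated A and B. Sox genes made up 54.3% and 55.3% of that sum in irradiated libraries, against 59.7% and 59.9% in unirradiated libraries. Sox10 alone held 28.3% and 28.4% in irradiated libraries, against 32.6% and 33.3% in unirradiated libraries. Sox4 held 17.8% and 18.5% in irradiated libraries, against 15.7% and 16.2% in unirradiated libraries. With 2 libraries a group an exact permutation test cannot go below p = 0.333, so no test is given for the sums.

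**Figure D4:**
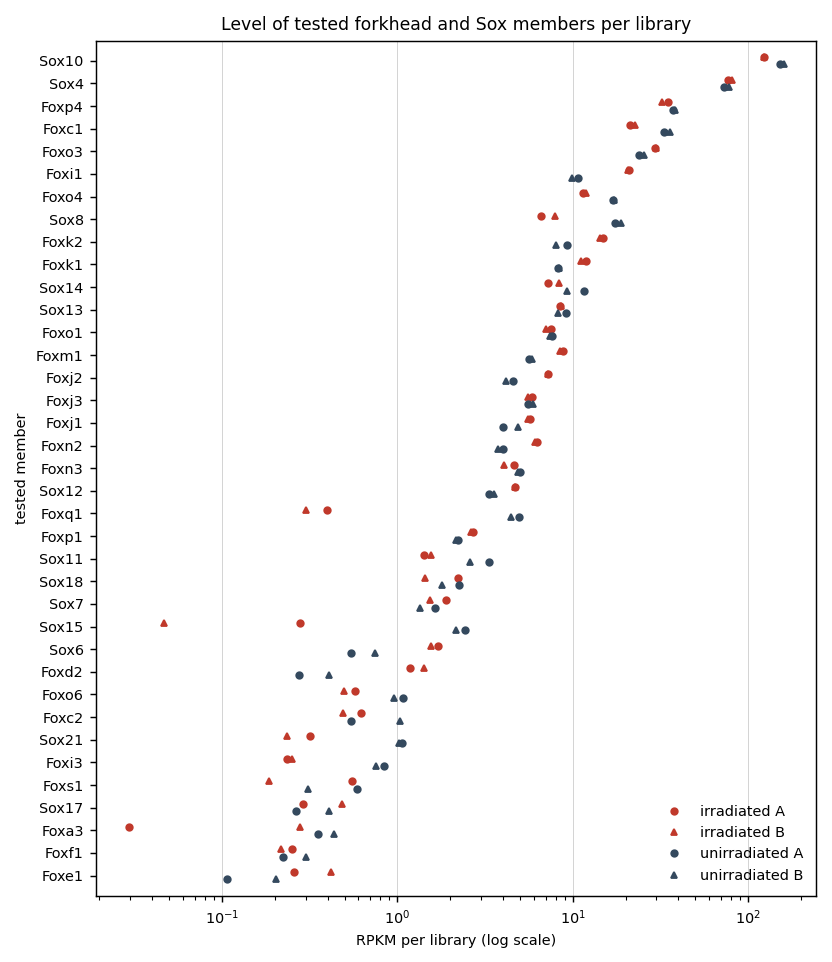
RPKM on a log scale of the 37 tested genes in each library (red irradiated, dark unirradiated, circle A, triangle B), ordered by mean level. Sox10 and Sox4 stand above all others, and Foxq1 and Sox15 show the widest gaps between the groups.

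The other 23 genes, 19 forkhead and 4 Sox, did not pass the filter on low counts. With no filter 19 of them had a value, and Sox2 and Sox30 were called higher and none lower. None had above 13 counts or 0.890 CPM in any library, 14 had 5 counts or fewer in all, and Foxb2, Foxi2, Foxr1 and Sox1 had 0 throughout. Foxa2, a pioneer factor of endoderm, had 0 and 1 counts in irradiated A and B, against 5 and 3 in unirradiated A and B, a ratio of 0.0879 (95% exact interval 0.00198 to 0.656). Foxd1, a factor of kidney stroma, had 4 and 5 counts in irradiated libraries, against 0 and 2 in unirradiated libraries, with an interval from 0.655 to 30.1. Foxn4 and Foxn1, of retina and thymus, had ratios of 0.481 (0.218 to 1.03) and 0.625 (0.210 to 1.83), so no difference was detectable at this depth. Of the remaining tested genes, Foxs1, a pericyte-associated factor, had 12 and 6 counts in irradiated libraries, against 13 and 5 in unirradiated libraries, and was not called. Adipocyte markers, 2 of 3 tested higher, summed to 19.7 to 20.1 CPM in irradiated and 13.03 to 13.7 CPM in unirradiated libraries. Pericyte and smooth-muscle markers, 7 of 11 tested higher and none lower, summed to 443.6 to 448.5 CPM in irradiated and 250.2 to 263.4 CPM in unirradiated libraries.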

How the data were processed

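Per the labels, the libraries were non-directional and held poly(A) RNA. The authors deposited a count table per library, of whole reads per gene with gene length and biotype; the submitters' processing notes name STAR 2.5, HTSeq 0.6.1, DESeq2 and the build mm10. Members and gene lists were chosen with earlier results of these data known. From the deposited counts, genes passing filterByExpr (15961) were scaled by TMM and tested with edgeR 4.0.16 in R 4.3.3 (glmQLFit, glmQLFTest, two-sided), with Benjamini-Hochberg adjustment over all of them and a threshold of 0.05. CPM use TMM-scaled library sizes, and RPKM divides them by the deposited gene length. Low counts have exact binomial intervals (95%), covering counting error only. A group at 0 counts was set to a floor of 3 counts, with the other group's counts taken as exact.

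Alternatives used DESeq2 1.42.0, other scalings, filters and dispersion, a length and GC trend, a 1.5-fold minimum, a block for the replicate letter and each library left out. The common biological coefficient of variation was 3.86%, on 2 residual degrees of freedom. The fit added a median of 60.0 prior degrees of freedom, so the p-values rest largely on spread shared over genes. The chi-square of counts over genes was a median of 2.14 and 2.11 times its expectation within the irradiated and unirradiated pairs and 29.7 between groups, so no library was a copy of another. The labels do not say whether the letters pair the libraries. The correlation of A minus B between groups was 0.012, which shows no shared shift by letter and cannot settle pairing. Named genes are all those called with at least 2-fold change and a mean of 0.5 CPM, the 5 highest by RPKM, the FoxO genes and Foxm1, and up to 4 called genes per list with at least 1 CPM, of which some are not reported here. Sequences come from GRCm38 with GENCODE release M21 and from RefSeq promoters (GRCm38.p6); 57 of the 60 members had identical coordinates in GENCODE. How reads in overlapping genes were assigned is not given in the sources used here, and 26 members overlap another gene, so their counts are less certain. Protein sequences were not used here.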

Additional observations from a re-analysis of the deposited data

How the results depend on the processing

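Members called higher and lower were 13 and 13, and 12 and 14 with the replicate letter as a block. Whether the letters pair the libraries is not known (correlation of A minus B between groups 0.012). With the block, the call of Foxe1 was lost (adjusted p = 0.066) and Foxa3 was called lower (-1.28, adjusted p = 0.0425). A minimum change of 1.5-fold left 4 members higher and 6 lower (forkhead 3 and 2, Sox 1 higher). Forkhead members called lower were 4 with DESeq2, against 7, and 4 to 7 with a library left out. Sox members called higher were 5 with no filter on low counts, against 2. Members called higher ranged from 12 to 14 and lower from 10 to 13 with a library left out. DESeq2 called 4499 genes higher and 4041 lower in all, against 5409 and 5184, and no scaling moved the median by over 0.1. Some members that were not called, and Foxp1, changed sign. With no filter, the log2 fold changes were 0.00776 for Foxo1, 0.0219 for Sox13 and 0.0518 for Foxj3. Over the genes in both fits, values with no filter were a median of 0.062 above those of the main fit. The Sox4 and Foxp4 values given above with no filter come from that same fit. With the trend in length and GC removed they were 0.0406 for Sox18, -0.0562 for Foxp1 and 0.00524 for Foxf1. With a library left out they ranged from -0.080 to 0.00911 for Foxo1, -0.149 to 0.624 for Sox17, -0.0973 to 0.0428 for Sox13, -1.31 to 0.233 for Foxs1, -0.492 to 0.128 for Sox18, -0.0603 to 0.0417 for Foxj3 and -0.385 to 0.0526 for Foxf1. The cause was not tested. DESeq2 did not call Foxe1, Foxi3, Foxo6, Foxj1 or Foxn3. Depth limits the 23 members under the filter, with 13 counts at most in a library.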
